A study of Mus musculus with 11 samples.

Results

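Tight junctions are the seals between neighbouring epithelial cells, and 10 of their genes are described here in the mouse rectal mucosa: the claudins Cldn1, Cldn2, Cldn3, Cldn4, Cldn7, Cldn15 and Cldn23, occludin (Ocln), the scaffold protein ZO-1 (Tjp1) and junctional adhesion molecule A (F11r). A gene was taken when its symbol in the array's annotation was exactly one of these names. All 10 were found, each read by 1 transcript cluster, among 19938 genes tested. Each mouse gave 1 Affymetrix Mouse Gene 1.0 ST array, which reads transcripts with probes along their length, and values are on the log2 scale, where a difference of 1 is a doubling.

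Claudins are small membrane proteins that pair across the gap between cells. Some of them tighten the seal, while others form pores that pass cations or water, so the mix that a cell makes sets which ions leak between cells. Occludin and JAM-A are further membrane proteins of the junction, and ZO-1 ties them and the claudins to the actin cytoskeleton. In the colon, tight junctions keep bacterial products out of the tissue and let the epithelium hold a salt gradient.

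There were 3 groups. The mutant tamoxifen group held 4 α6ΔIEC-TAM mice, in which tamoxifen is meant to delete Itga6, the gene of integrin α6, from intestinal epithelial cells. The control tamoxifen group held 3 wild type mice given the same drug, and the mutant NaCl group held 4 α6ΔIEC-TAM mice given the vehicle alone. Mice were 8 weeks old at the first gavage and were studied at 10 weeks, 15 days after it. Gavage was given in 2 doses, on alternate days within 5 days, at 10 mg of tamoxifen a day in the tamoxifen groups. Males made up 1 of the 4 mice of either mutant group and 2 of the 3 wild type mice. The labels pair no mice across groups. They name neither the recombinase nor the promoter that drives it. None of the 11 arrays came from a wild type mouse given NaCl, so the drug was not compared with its vehicle in wild type mice.

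The targeted gene did not bear out the label. Itga6 read 11.75, 11.93, 11.84 and 11.77 in the arrays labelled mutant tamoxifen, 11.15, 11.52 and 11.49 in control tamoxifen, and 11.39, 11.28, 11.49 and 11.47 in mutant NaCl. Its level was 1.34-fold above control tamoxifen (limma, adjusted p = 0.0095) and 1.33-fold above mutant NaCl (adjusted p = 0.0053), whereas a deletion lowers a transcript read at the deleted exons. The first call did not hold in female arrays alone (adjusted p = 0.116) or without mutant_tam replicate 3 (adjusted p = 0.0614). The position of the probes relative to the deletion was not known. The group is therefore named by its label, and every direction below rests on that label. Array medians lay between 7.29 and 7.35, correlations between arrays of a group between 0.992 and 0.996, and no 2 arrays were identical. Of the markers that define the tissue, the 11 of simple columnar epithelium had mean levels of 11.85 to 12.21 over all arrays. The 14 of stratified squamous epithelium varied widely within groups (6.58 to 10.18 in control tamoxifen, 8.26 to 10.12 in mutant tamoxifen, 8.88 to 10.13 in mutant NaCl).

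Cldn4 was the tight junction gene of the 10 with the largest difference. It rose 2.67-fold in the arrays labelled mutant tamoxifen against control tamoxifen and 2.52-fold against mutant NaCl. Ocln fell 1.25-fold and 1.18-fold in the same comparisons. The other 8 genes did not pass the test in either comparison. Between mutant NaCl and control tamoxifen none of the 10 passed.

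The share of the 10 genes that passed was close to that of the array as a whole. Against control tamoxifen 1 of 10 rose, where 12.9% of all genes did, and 1 of 10 fell, where 11.8% did (limma, Benjamini-Hochberg adjusted p under 0.05 over all genes). Against mutant NaCl 1 of 10 rose, where 12.5% of all genes did, and 1 of 10 fell, where 10.7% did. The median log2 difference of the 10 was 0.00 against control tamoxifen (-0.02 for all genes) and 0.04 against mutant NaCl (-0.01 for all genes). In mutant NaCl against control tamoxifen 0 of 10 passed, as did 0% of all genes in either direction. At an unadjusted p under 0.05, 1 of 10 and 1622 of 19938 genes differed there. The 2 comparisons that involve mutant tamoxifen share its arrays, so they are not independent.

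**Figure D1:**
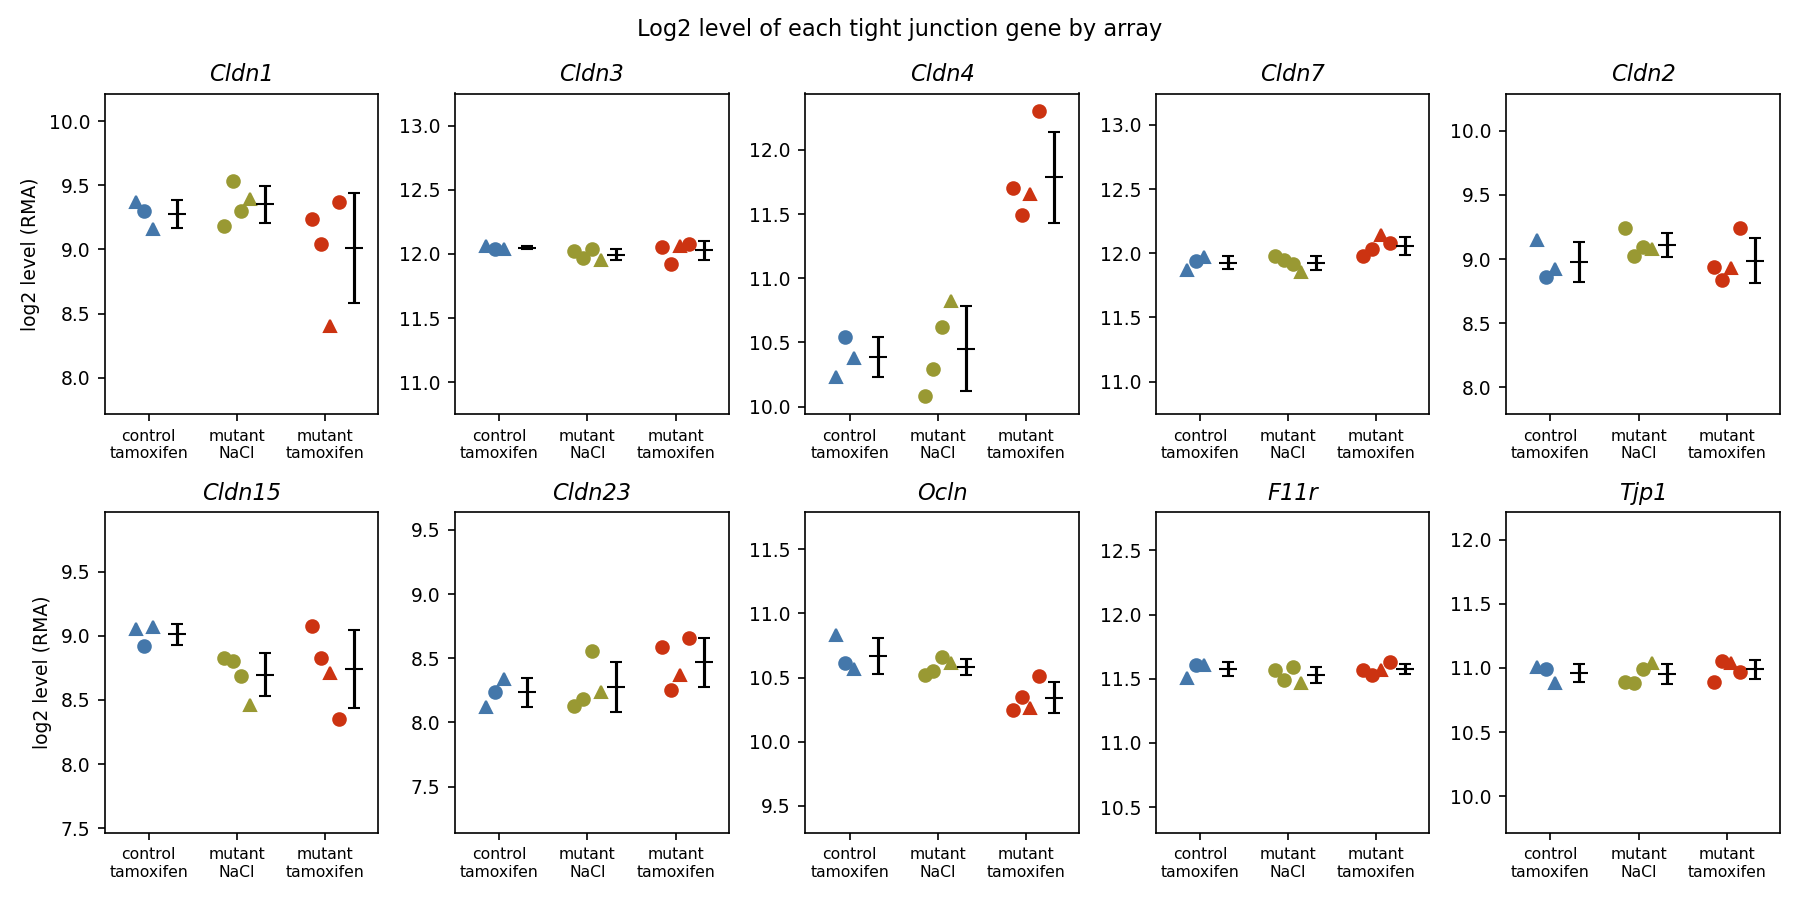
Log2 level of each of the 10 genes in every array, by group; circles are female and triangles male mice, and the bar beside each group is the mean with 1 SD (n = 3 for control tamoxifen, 4 for the others). All panels span the same height on the log2 axis; Cldn4 reads 11.49 to 12.30 in mutant tamoxifen and 10.08 to 10.82 in the other arrays, and Ocln 10.25 to 10.51 against 10.52 to 10.83.

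Cldn4 encodes a claudin of tight epithelia that seals against cations. Its gene lies beside that of Cldn3 in the mouse genome, with Cldn3 next on one side, and Mettl27 and then Cldn13 on the other. Cldn7 and Ocln have 2 listed starts each. The promoters of the neighbours Cldn4 and Cldn3 and that of Ocln are shown because Cldn4 rose, Cldn3 did not pass the test and Ocln fell. For Ocln the window further upstream is shown. Each runs from 250 bases before to 50 after the start in RefSeq (GRCm38.p6), 5′ to 3′ on the gene's strand, with motif matches in capitals.
Cldn4, chr5:134946885-134947184, minus strand: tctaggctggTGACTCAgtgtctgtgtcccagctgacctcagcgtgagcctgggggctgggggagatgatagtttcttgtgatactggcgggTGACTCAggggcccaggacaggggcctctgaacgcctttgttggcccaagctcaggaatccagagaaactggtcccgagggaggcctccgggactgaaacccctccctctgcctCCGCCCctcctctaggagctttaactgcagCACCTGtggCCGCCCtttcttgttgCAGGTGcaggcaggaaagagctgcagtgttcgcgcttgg
Cldn3, chr5:134985964-134986263, plus strand: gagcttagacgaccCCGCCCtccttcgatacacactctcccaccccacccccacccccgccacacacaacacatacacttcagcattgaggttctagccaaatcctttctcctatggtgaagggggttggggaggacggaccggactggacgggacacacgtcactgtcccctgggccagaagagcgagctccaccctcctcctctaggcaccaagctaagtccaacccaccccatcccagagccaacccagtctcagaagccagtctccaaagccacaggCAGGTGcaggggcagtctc
Ocln, chr13:100552669-100552968, minus strand: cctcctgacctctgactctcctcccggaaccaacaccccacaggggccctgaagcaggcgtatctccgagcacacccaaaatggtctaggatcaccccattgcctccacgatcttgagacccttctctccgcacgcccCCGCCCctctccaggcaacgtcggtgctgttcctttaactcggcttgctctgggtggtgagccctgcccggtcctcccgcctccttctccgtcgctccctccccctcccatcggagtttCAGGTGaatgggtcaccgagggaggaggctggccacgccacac
The motifs searched, on both strands, were the GC box GGGCGG, the E-box CACCTG bound by Snail and Zeb repressors, the AP-1 motif TGANTCA, the Grainyhead-like motif AACNNGTT, the NF-kB motif and the TATA box TATAAA. No matches overlapped. The Cldn4 window held 2 AP-1 matches, 2 E-boxes and 2 GC boxes. The Cldn3 window held 1 GC box and 1 E-box and had no AP-1 match, and the Ocln window shown also held 1 GC box and 1 E-box. The second Ocln window, at chr13:100552449-100552748, held 1 GC box and 2 E-boxes. It overlaps the window shown, and 1 E-box lies in both. Among 32851 promoter windows of 300 bases, 7.81% held an AP-1 match, 20.2% this E-box, 35.7% a GC box, 4.2% the Grainyhead-like motif, 1.63% the NF-kB motif and 13.6% the TATA box. Promoters of 9 of the 10 genes were listed, and AP-1 matches were also found in Cldn15 (1) and F11r (1), which did not pass the test. A match is a string of letters and not a measured binding site.

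Cldn4 read 11.70, 11.49, 11.66 and 12.30 in mutant tamoxifen (mean 11.79 ± 0.354, SD, n = 4). In control tamoxifen it read 10.23, 10.54 and 10.38 (mean 10.38 ± 0.153, SD, n = 3). In mutant NaCl it read 10.08, 10.29, 10.62 and 10.82 (mean 10.45 ± 0.333, SD, n = 4). Every mutant tamoxifen array was above every other array, and the 2 remaining groups overlapped. The log2 difference was 1.42 from control tamoxifen (limma, SE 0.22, 95% interval 0.93 to 1.91, adjusted p = 0.00153) and 1.33 from mutant NaCl (SE 0.19, interval 0.91 to 1.75, adjusted p = 0.000935). Mutant NaCl and control tamoxifen differed by 0.09 (interval -0.40 to 0.57, adjusted p = 0.938). In female arrays alone the differences were 1.29 and 1.5, both past the threshold (limma, adjusted p = 0.044 and 0.00371), with 1 female control array that is assumed to vary like the other groups. The male mutant tamoxifen array, at 11.66, was above the male control arrays at 10.23 and 10.38 and the male mutant NaCl array at 10.82.

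The levels of the neighbours Cldn4 and Cldn3 were also set against each other within each array. Cldn4 minus Cldn3 was -0.43 to 0.22 in mutant tamoxifen, -1.83 to -1.5 in control tamoxifen and -1.94 to -1.13 in mutant NaCl. Its mean was 1.42 higher in mutant tamoxifen than in control tamoxifen and 1.30 higher than in mutant NaCl. For Cldn4 minus Ocln the corresponding differences were 1.73 and 1.58. Both pairs were chosen with the calls of their genes known, so these values restate those calls on one scale and are given with no test.

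**Figure D2:**
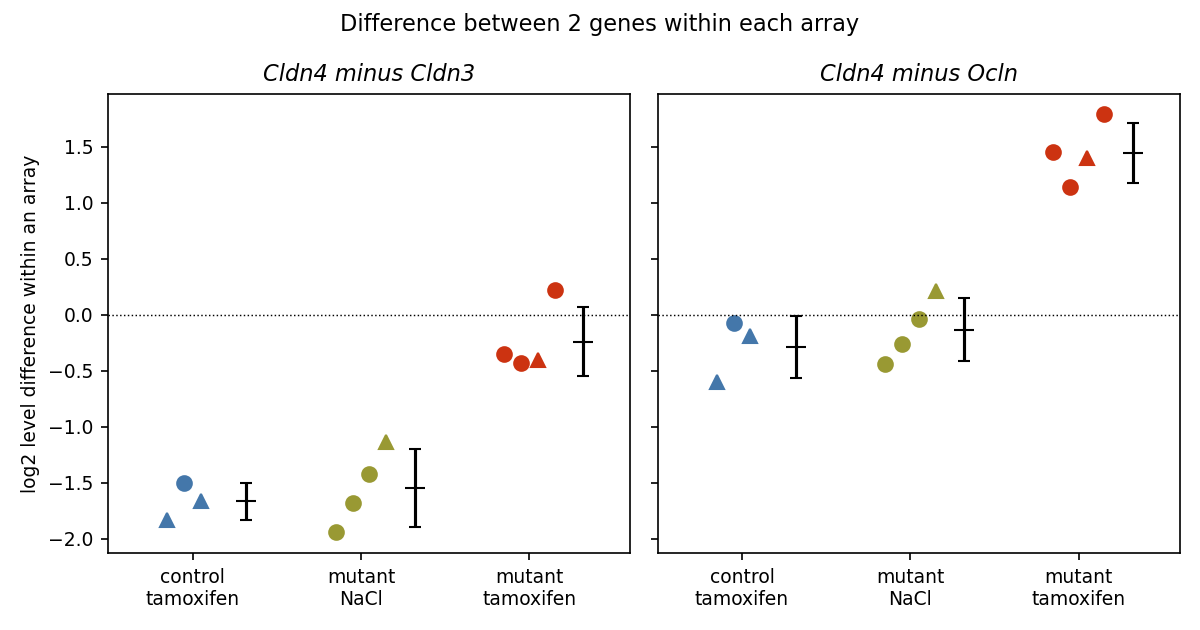
Cldn4 level minus Cldn3 level (left) and minus Ocln level (right) within each array, on the log2 scale, by group; circles are female and triangles male mice, bars are the mean with 1 SD. In both panels the 4 mutant tamoxifen arrays lie above all others (-0.43 to 0.22 against at most -1.13 on the left, 1.15 to 1.80 against at most 0.22 on the right).

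The other sealing claudins stayed closer together. Cldn3 read 12.05, 11.92, 12.06 and 12.08 in mutant tamoxifen, 12.06, 12.04 and 12.04 in control tamoxifen and 12.02, 11.97, 12.04 and 11.95 in mutant NaCl, and the 3 groups overlapped. Its log2 difference was -0.02 from control tamoxifen (interval -0.13 to 0.09) and 0.03 from mutant NaCl (interval -0.06 to 0.13). Cldn7, a claudin that also sits on the lateral membrane and binds EpCAM, read 11.98, 12.03, 12.14 and 12.08 in mutant tamoxifen. In control tamoxifen it read 11.87, 11.94 and 11.97, and in mutant NaCl 11.98, 11.95, 11.92 and 11.85. The lowest mutant tamoxifen array and the highest mutant NaCl array both read 11.98, and the other mutant tamoxifen arrays were above every array of the 2 remaining groups. The Cldn7 difference was 0.13 in both comparisons (limma, SE 0.054 and 0.047, adjusted p = 0.105 and 0.0677), and it missed the threshold in both. Against mutant NaCl it passed when arrays were centred on their median (adjusted p = 0.0404), when the lowest 50% of genes were left out (0.0453) and without mutant_tam replicate 1 (0.0467).

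Cldn1, a sealing claudin that is abundant in stratified epithelia as well, had a wide spread in mutant tamoxifen. It read 9.24, 9.04, 8.40 and 9.37 there (mean 9.01 ± 0.430, SD, n = 4), 9.37, 9.30 and 9.16 in control tamoxifen, and 9.18, 9.53, 9.30 and 9.39 in mutant NaCl. The low value of 8.40 is that of the male mouse, mutant_tam replicate 3. The log2 difference was -0.38 from control tamoxifen (interval -0.78 to 0.01, adjusted p = 0.147) and -0.34 from mutant NaCl (interval -0.68 to 0.00, adjusted p = 0.148). Without that 1 array the differences were -0.06 and -0.13.

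The pore-forming claudins did not pass the test. Cldn2, which forms a channel for cations and water in leaky epithelia, read 8.94, 8.84, 8.93 and 9.24 in mutant tamoxifen, 9.15, 8.86 and 8.92 in control tamoxifen, and 9.24, 9.02, 9.09 and 9.08 in mutant NaCl. All 3 groups overlapped. Its log2 difference was 0.02 from control tamoxifen (interval -0.23 to 0.26, adjusted p = 0.935) and -0.12 from mutant NaCl (interval -0.33 to 0.09, adjusted p = 0.438). Cldn15, a sodium channel between cells of the gut, read 9.08, 8.83, 8.71 and 8.35 in mutant tamoxifen, 9.05, 8.92 and 9.07 in control tamoxifen, and 8.83, 8.80, 8.69 and 8.46 in mutant NaCl. Both mutant groups had lower means than control tamoxifen, and the log2 differences from the limma fit, which has a sex term, were -0.30 and -0.35. Neither difference passed (limma, adjusted p = 0.186 and 0.611), although the second had an unadjusted p of 0.046. Against mutant NaCl, the mutant tamoxifen arrays differed by 0.05 (interval -0.25 to 0.35).

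Cldn23, a claudin of differentiated colonocytes, read 8.59, 8.25, 8.37 and 8.66 in mutant tamoxifen, 8.12, 8.24 and 8.34 in control tamoxifen and 8.13, 8.18, 8.56 and 8.24 in mutant NaCl. The groups overlapped, and the log2 differences of 0.21 and 0.19 did not pass (adjusted p = 0.271 and 0.273). Over the 11 arrays the levels of Cldn4 and Cldn23 had a Pearson r of 0.725, and Cldn7 and Ocln one of -0.747. These are the highest and the lowest of all pairs among the 10 genes, and they describe arrays that share the group differences above.

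Ocln, the tetraspan protein that runs along the strands and gathers where cells meet, fell. It read 10.25, 10.35, 10.26 and 10.51 in mutant tamoxifen (mean 10.34 ± 0.117, SD, n = 4). In control tamoxifen it read 10.83, 10.61 and 10.57 (mean 10.67 ± 0.142, SD, n = 3), and in mutant NaCl 10.52, 10.55, 10.66 and 10.61 (mean 10.58 ± 0.0605, SD, n = 4). The mutant tamoxifen arrays were below all others, and the nearest arrays read 10.51 and 10.52. The log2 difference was -0.33 from control tamoxifen (limma, SE 0.086, interval -0.52 to -0.14, adjusted p = 0.0193) and -0.24 from mutant NaCl (SE 0.075, interval -0.41 to -0.08, adjusted p = 0.0389). The calls are close to the threshold. Without mutant_tam replicate 3 the first difference was -0.26 and did not pass (adjusted p = 0.126), and the second did not pass without any one of mutant_tam replicates 1, 2 and 3 and mutant_nacl replicates 1 to 4 (differences -0.26 to -0.20). In female arrays alone the differences were -0.24 and -0.21 (adjusted p = 0.221 and 0.105).

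The adhesion molecule and the scaffold did not pass the test. F11r, whose product JAM-A helps place polarity proteins at the junction, read 11.57, 11.53, 11.57 and 11.63 in mutant tamoxifen, 11.51, 11.61 and 11.61 in control tamoxifen and 11.57, 11.49, 11.59 and 11.47 in mutant NaCl. Its differences were -0.02 (interval -0.13 to 0.09) and 0.04 (interval -0.05 to 0.14). Tjp1 read 10.89, 11.05, 11.04 and 10.97 in mutant tamoxifen, 11.01, 10.99 and 10.88 in control tamoxifen and 10.89, 10.88, 10.99 and 11.04 in mutant NaCl. Its differences were 0.05 (interval -0.09 to 0.18) and 0.04 (interval -0.08 to 0.15). For both genes the 3 groups overlapped, and none of these differences passed (limma, adjusted p = 0.521 to 0.799).

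**Figure D3:**
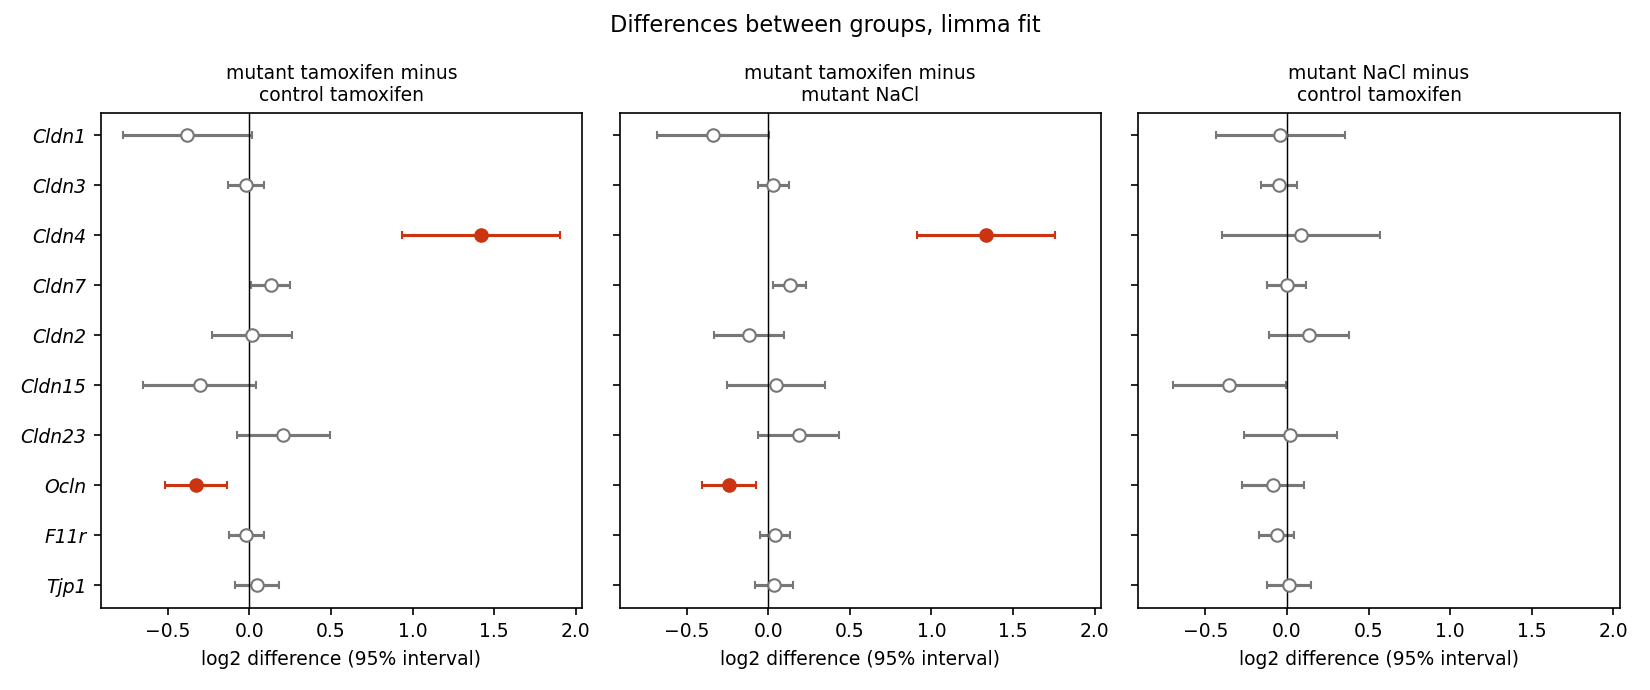
Log2 difference of each of the 10 genes in the 3 comparisons, from the limma fit over all 11 arrays, with 95% intervals; filled red points have an adjusted p under 0.05. Cldn4 stands at 1.42 and 1.33 in the comparisons with mutant tamoxifen and at 0.09 between mutant NaCl and control tamoxifen, where no point is filled.

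Markers of other cells moved in the same arrays. Over the whole array 12.9% of genes rose and 11.8% fell against control tamoxifen, and 12.5% rose and 10.7% fell against mutant NaCl. All 12 smooth muscle markers fell against control tamoxifen (median log2 difference -0.50), and their mean level was 11.58 to 11.74 in mutant tamoxifen and 12.01 to 12.31 in the other arrays. Of 11 absorptive colonocyte markers 7 fell (median -0.90), and all 9 markers of dividing crypt cells rose (median 0.77). Of 9 neutrophil markers 8 rose (median 0.70), with mean levels of 7.69 to 8.10 against 7.01 to 7.28. Of 5 enteric neuron and glia markers 4 fell against control tamoxifen (median -0.29) and 2 against mutant NaCl (median -0.13). Their mean levels were 7.38 to 7.5 in mutant tamoxifen and 7.72 to 7.86 in the other arrays. Of 6 goblet cell markers 2 rose and 2 fell against control tamoxifen, and 3 rose and 2 fell against mutant NaCl. Of 7 macrophage markers 1 rose and 2 fell against control tamoxifen, and 1 rose against mutant NaCl. Of 7 fibroblast markers 1 rose against control tamoxifen, and 4 rose and 1 fell against mutant NaCl. Of 11 columnar epithelium markers 4 rose against control tamoxifen (median 0.16) and 6 rose against mutant NaCl (median 0.11). The 4 were Krt20 (0.70), Krt18 (0.38), Tspan8 (0.35) and Krt19 (0.16). On the same list, the pan-epithelial genes Epcam and Cdh1 differed from control tamoxifen by -0.04 and 0.01 and did not pass. In bulk tissue, more cells of a type and more RNA per cell cannot be told apart. With the mean squamous level in the model, Cldn4 differed by 1.38 and 1.33 (limma, adjusted p = 0.00469 and 0.00131). With the mean smooth muscle level in the model it differed by 2.89 and 2.73 (adjusted p = 0.0846 and 0.0844), and with the mean columnar level by 1.05 and 1.01 (adjusted p = 0.406 and 0.376), and neither model called it. With the muscle term Ocln differed by 0.05 and 0.12, the opposite sign. Group and sex together accounted for 92.6% of the variance of the muscle mean and 81.1% of that of the columnar mean, so these terms and the group can hardly be told apart. For the squamous mean the share was 70.4%, so that term is partly tied to group and sex as well. With the muscle term 1 gene of the whole array was called against control tamoxifen.

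Beyond the 10 genes, 108 measured genes on 9 further lists of the junction and its regulators were read. Against control tamoxifen 15 rose and 14 fell (median difference 0.00), or 26.9% of the 108 where 24.6% of all genes were called in either direction. Against mutant NaCl 17 rose and 17 fell (median 0.00), or 31.5% where 23.2% of all genes were called. Between mutant NaCl and control tamoxifen 0 of 108 passed. Of 17 other claudins 2 rose against control tamoxifen, or 11.8% of the list, where 12.9% of all genes rose. Cldn10, whose isoforms form pores for cations or anions, was the one that also rose against mutant NaCl. It read 7.19, 7.01, 7.03 and 6.87 in mutant tamoxifen, 5.87, 5.97 and 6.13 in control tamoxifen and 5.92 to 6.04 in mutant NaCl. That is 2.06-fold and 2.07-fold higher (limma, adjusted p = 6.29e-05 and 1.9e-05), with no overlap between mutant tamoxifen and the rest. All of these levels were below the array medians of 7.29 to 7.35, and Cldn10 was among the lowest 50% of genes by mean level. The other called gene, the claudin domain gene Cldnd1, differed by 0.22 and 0.13 (adjusted p = 0.0325 and 0.149).

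Of 7 junctional adhesion molecules and other membrane proteins of the junction, 1 rose and 4 fell against control tamoxifen. That is 71.4% of the list, where 24.6% of all genes were called in either direction. Vsig1, a junction protein best known from the stomach, rose 3.5-fold and 3.75-fold (log2 differences 1.81 and 1.91, adjusted p = 1.96e-05 and 4.97e-06). It read 10.99 to 11.45 in mutant tamoxifen and 9.08 to 9.53 in all other arrays. Bves, which is also a muscle gene, fell (-0.67 and -0.68, adjusted p = 0.00121 and 0.000475), as did Jam2 (-0.33 and -0.38, adjusted p = 0.0287 and 0.00814) and Jam3 (-0.26 and -0.22, adjusted p = 0.0123 and 0.0134), which are made by endothelium and other cells. With the smooth muscle mean in the model Bves differed by 0.08 and 0.04 and Jam2 by 0.20 and 0.13, the opposite sign. That term can hardly be told apart from the group, as given above. Leaving aside the muscle and columnar terms, the Jam2 call against control tamoxifen held in 16 of 22 alternative settings (adjusted p up to 0.2). None of 7 endothelial markers passed, and the part of muscle, endothelium or other cells in these falls was not tested. Of 5 tricellular junction and MARVEL domain genes, Ildr1 rose against control tamoxifen (0.28, adjusted p = 0.0348, in 15 of 22 settings) and did not pass against mutant NaCl (0.20, adjusted p = 0.0755), and Lsr differed by 0.14 and 0.13 without passing.

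Of 12 plaque genes, 1 rose and 3 fell against control tamoxifen, and 2 rose and 2 fell against mutant NaCl. Those called were 33.3% of the list in either comparison, where 24.6% and 23.2% of all genes were called in either direction. Cgnl1, which encodes the cingulin relative paracingulin, rose 1.62-fold and 1.59-fold (adjusted p = 0.000721 and 0.000341). The multi-PDZ scaffold genes Magi1 (-0.29 and -0.20, adjusted p = 0.014 and 0.0368) and Mpdz (-0.27 and -0.31, adjusted p = 0.039 and 0.0131) fell. The 2 scaffold calls were close to the threshold: leaving out the muscle and columnar terms, Magi1 passed in 18 of 22 alternative settings against control tamoxifen and 11 of 22 against mutant NaCl, and Mpdz in 10 and 19 of 21. Of 16 polarity genes, 2 rose and 1 fell against control tamoxifen (18.75% of the list), and 4 rose and 2 fell against mutant NaCl (37.5%). Pard6b rose (0.56 and 0.59, adjusted p = 0.00704 and 0.00265) and its kinase partner Prkcz, which encodes atypical protein kinase C zeta, fell (-0.68 and -0.35, adjusted p = 0.00237 and 0.0279), the second in 16 of 22 settings. Llgl2 rose by 0.15 and 0.19 (adjusted p = 0.0485 and 0.0103), the first in 7 of 22 settings. Of 7 membrane proteins that process or bind claudins, 1 fell against control tamoxifen (14.3% of the list). Against mutant NaCl 1 rose and 1 fell (28.6%). Spint2, a protease inhibitor, fell in both comparisons (-0.26 and -0.16, adjusted p = 0.00153 and 0.00811).

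Among 15 transcription factors linked to claudin genes, 1 rose and 2 fell against control tamoxifen, and 2 rose and 6 fell against mutant NaCl. Those called were 20% and 53.3% of the list, where 24.6% and 23.2% of all genes were called in either direction. Vdr, the vitamin D receptor, fell 2.3-fold and 2.05-fold (log2 differences -1.20 and -1.03, adjusted p = 0.000238 and 0.000189). It read 11.72, 11.44, 11.50 and 11.06 in mutant tamoxifen and 12.36 to 12.75 elsewhere. Hnf4a, a regulator of enterocyte genes, fell by a smaller amount (-0.25 and -0.28, adjusted p = 0.0011 and 0.000235), and Snai2, a repressor of epithelial genes, rose (0.49 and 0.48, adjusted p = 0.00284 and 0.00159). The other Snail and Zeb genes on the list did not rise with it. Zeb1 differed by -0.27 and -0.39 (limma, adjusted p = 0.0514 and 0.00558), and only the second passed. Zeb2 (-0.22 and -0.20) and Snai1 (0.13 and 0.15) did not pass. Of 15 cytokines and receptors that act on tight junctions, 6 rose and 2 fell against control tamoxifen, and 5 rose and 2 fell against mutant NaCl. The called share of this list was 53.3% and 46.7%, beside the same 24.6% and 23.2% of all genes. Il1b (interleukin 1β) rose 5.01-fold and 4.49-fold (adjusted p = 0.00115 and 0.000684), Tnf by 0.59 and 0.58 on the log2 scale (adjusted p = 0.000885 and 0.000415), and the tumour necrosis factor receptor genes Tnfrsf1b (0.70 and 0.62, adjusted p = 0.000423 and 0.000319) and Tnfrsf1a (0.38 and 0.34, adjusted p = 0.00663 and 0.00612) rose too. Neutrophil markers moved in the same arrays, as given above, and neutrophils make Il1b; their part in these values was not tested. Il13 (0.00 and -0.02), Ifng (0.07 and -0.11) and Il17a (-0.05 and 0.03) did not pass.

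**Figure D4:**
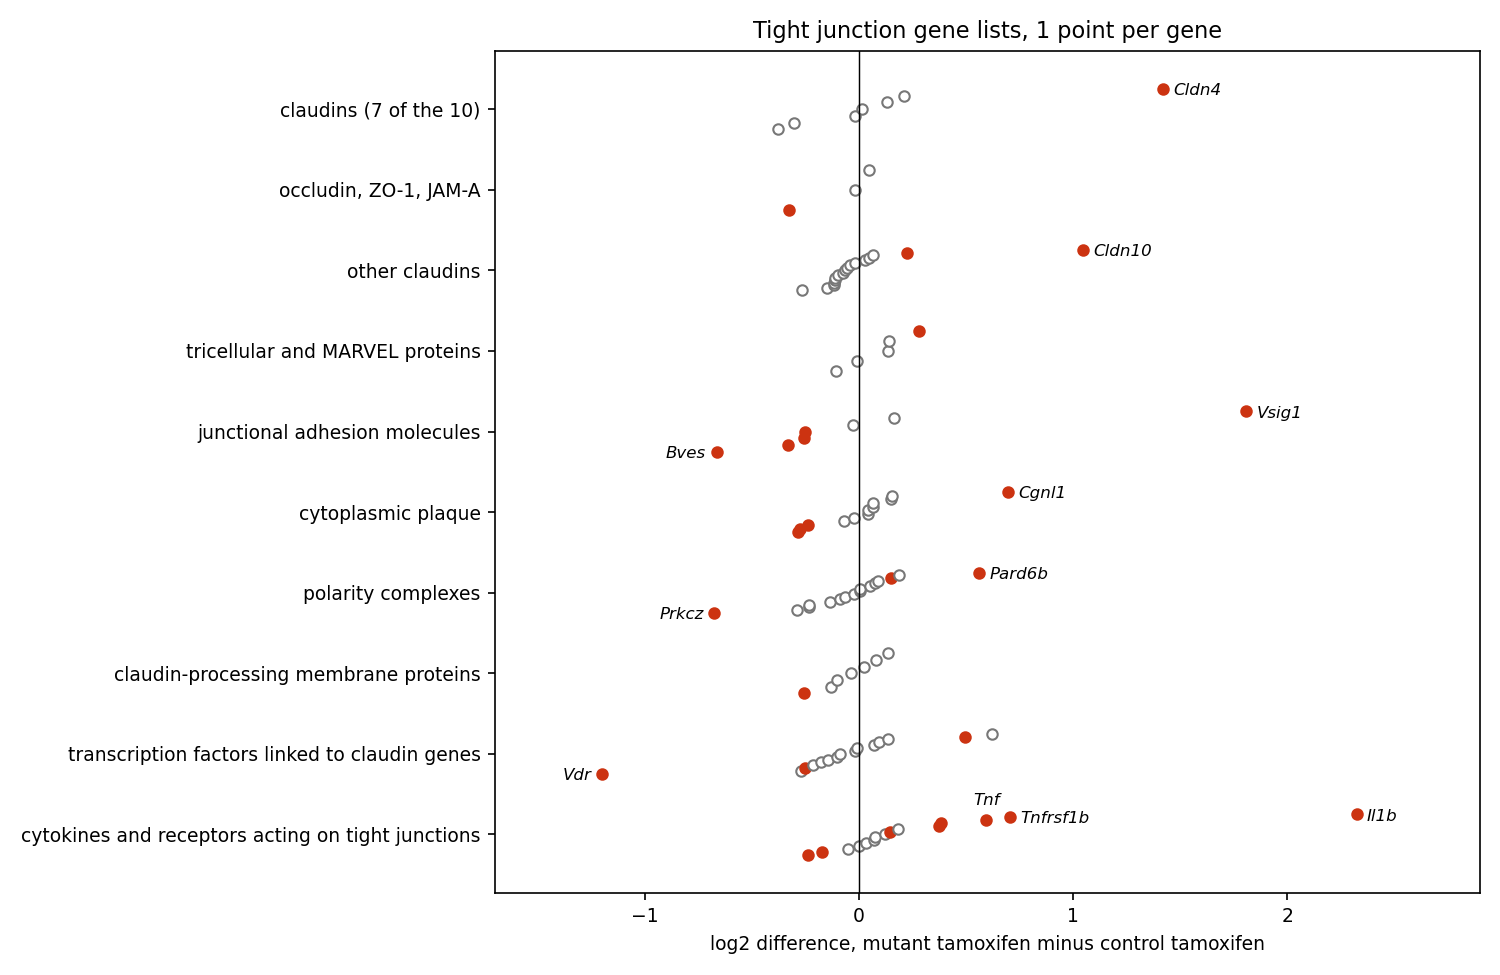
Log2 difference, mutant tamoxifen minus control tamoxifen, of the measured genes on the tight junction lists described here, 1 point per gene and 1 row per list; filled red points have an adjusted p under 0.05, and those of at least 0.5 in size are named. Most points lie near 0; Il1b (2.32), Vsig1 (1.81), Cldn4 (1.42) and Cldn10 (1.05) are to the right, and Vdr (-1.20), Prkcz (-0.68) and Bves (-0.67) to the left.

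The genes whose levels followed the 2 called genes most closely over the 11 arrays were sought among all named genes. For Cldn4 these were Myof, which encodes the membrane repair protein myoferlin (Pearson r = 0.992), and Car5b, a mitochondrial carbonic anhydrase gene (r = 0.987). Myof rose by 0.57 and 0.53 (adjusted p = 0.00187 and 0.00131) and Car5b by 0.98 and 0.80 (adjusted p = 0.00345 and 0.0046). In mutant NaCl, where Cldn4 ran from 10.08 to 10.82, Myof ran from 10.29 to 10.58 and Car5b from 7.58 to 8.22. For Ocln they were Ccdc92b (r = 0.972) and Stra6l (r = 0.961), neither of which passed the test against control tamoxifen (adjusted p = 0.0655 and 0.0517). These are the highest values among all genes searched, the arrays share the group differences, and r is given as a description.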

How the data were processed

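Total RNA from rectal mucosa was hybridised to 11 arrays, 1 per mouse. The authors deposited log2 values per transcript cluster, made by RMA, per the labels, in Expression Console version 1.1, with images read in Command Console version 2.0 per the series design text. RMA as a method corrects background, brings arrays to a common distribution and gives 1 value per cluster, which can shrink shifts shared by most genes. Partek is named as well, with no role, per the submitters' processing notes. Neither a genome build nor the authors' own test was found in the labels.

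Of 35556 transcript clusters, 21789 had 1 gene symbol in the platform annotation, 1621 had several and 12146 were unnamed here. For genes with several clusters the one with the highest mean was used, which gave 19938 genes without a filter on low values. Symbols followed a RefSeq table of GRCm38.p6, which 21698 clusters matched. Promoter windows are RefSeq's, on the same build.

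A linear model of group and sex was fitted to all 11 arrays (limma 3.58.1, R 4.3.3), with variances moderated along a trend on the mean. P-values are two-sided and were adjusted across the 19938 genes by Benjamini-Hochberg, and a gene was called at an adjusted p under 0.05. Paired values in the text refer to mutant tamoxifen against control tamoxifen first and against mutant NaCl second. The fit was checked on simulated data. P-values weigh a group difference against the variance between mice, pooled over the groups and moderated as above. The number of mice limits the precision.

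The 10 genes and the lists were chosen with earlier results of these data known. Of the other lists, the genes past the threshold in both comparisons with mutant tamoxifen were named, at most 4 per list by size of the difference from control tamoxifen, or else the 2 with the smallest p. For each of the 10 genes called against control tamoxifen, the 2 genes with the highest correlation were named, predicted genes left out. Cldnd1, Snai1, Zeb1, Zeb2, the cytokines that did not pass and the named columnar epithelium markers were chosen after their values were seen. Itga6 was named as the targeted gene. The genes of 1 of the 9 further lists are counted in the totals but not reported here. Replicate numbers only name an array. Alternatives are listed in the closing section.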

Additional observations from a re-analysis of the deposited data

How the results depend on the processing

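Each comparison was recomputed in 24 alternative settings: no sex term, only the arrays of the groups compared, the female mice, a filter on level that drops 25% or 50% of genes, arrays centred on their median, quantile normalisation again, no variance trend, array weights, 3 marker covariates, the mean of all transcript clusters of a gene, and each of the 11 arrays left out. Cldn4 kept its direction in all and its call in all but the smooth muscle and columnar covariates, with log2 differences of 1.27 to 1.60 from control tamoxifen and 1.15 to 1.51 from mutant NaCl in the other 22. Ocln passed in 19 of those 22 settings against control tamoxifen (-0.39 to -0.24) and in 14 against mutant NaCl (-0.30 to -0.20). For values of the 10 genes not past the threshold, 3 of 624 alternatives passed, all for Cldn7 against mutant NaCl, and 64 changed sign. In mutant NaCl against control tamoxifen no setting called any of the 10 genes or of the 108 others.

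Against control tamoxifen, the count of the 10 genes that fell went from 1 to 0 with only the arrays of the groups compared and with female arrays alone, and from 1 to between 0 and 1 with an array left out. Both counts, risen and fallen, were 0 with the muscle or the columnar covariate. Against mutant NaCl, the count that rose was 2 with the lowest 50% of genes left out or arrays centred on their median, 1 to 2 with an array left out, and 0 with the muscle or columnar covariate. The count that fell was 0 with female arrays alone and with either covariate, and 0 to 1 with an array left out.

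Of the 108 other genes, female arrays alone gave 6 risen and 6 fallen against control tamoxifen and 11 and 11 against mutant NaCl, which leaves 1 control array. The muscle covariate gave 0 in both directions and comparisons, and the columnar covariate 1 risen and 0 fallen, and 2 risen and 0 fallen. The squamous covariate gave 9 fallen against control tamoxifen. With an array left out, 7 to 16 rose and 7 to 16 fell against control tamoxifen, and 13 to 18 rose and 10 to 17 fell against mutant NaCl. Without mutant_tam replicate 3 it was 7 and 7 in the first comparison and 10 fallen in the second. Without control_tam replicate 1 or 2 it was 9 fallen in the first, and without mutant_nacl replicate 3 it was 11 fallen in the second. With the muscle covariate the sign changed for Ocln (0.05 and 0.12), Bves (0.08 and 0.04), Jam2 (0.20 and 0.13) and Mpdz (0.25 and 0.19). With the columnar covariate it changed for Jam2 against control tamoxifen (0.04) and Prkcz against mutant NaCl (0.05). Those covariates largely follow the groups, and the cause was not tested for the other changes. Cldn10, Jam3, Mpdz and Tnf gave no value with the lowest 50% of genes left out. No paired analysis was possible because the labels pair no mice across groups.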
